A study of Mus musculus with 8 samples.

Results

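The insulin-like growth factor (IGF) axis of the lung was described through 9 genes: the ligand genes Igf1 and Igf2, the receptor gene Igf1r, and Igfbp2 to Igfbp7, which encode 6 binding proteins. They were taken by name from the 52636 gene identifiers counted in each library, and each name matched 1 identifier in the GENCODE M21 annotation of the mouse genome GRCm38. All 9 had enough counts to be among the 20546 genes tested. The genes were chosen on measured values of these same libraries across all groups. Their levels and fold changes are therefore a description, and no p-value is given for them.

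The 8 RNA libraries came from the lungs of wild type male C57BL/6 mice and formed 4 groups of 2. Mice called controls were given PBS. The mice of the COPD mice model, called COPD mice below, were given PPE, a pancreatic elastase of the pig, at 10 weeks of age and LPS, a lipopolysaccharide, from 12 weeks, so that the injury was made with an enzyme and a bacterial product. Each was fed from 8 weeks of age either a control diet, named NT in the labels, or a diet with 2% TJ-41, the herbal medicine hochuekkito. The sources used here do not give the age or hour of RNA collection, or whether the libraries came from separate or pooled mice. The errors below therefore measure the spread between libraries, which may be technical. Each SE rests on a spread estimated per gene over all 8 libraries, and not on the compared groups alone.

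IGF1 and IGF2 are secreted peptides that promote growth and survival of cells through the receptor IGF1R, which passes the signal to insulin receptor substrates and on to the PI3K-AKT and RAS-MAP kinase routes. The binding proteins hold the ligands outside the cell, lengthen their life and limit or deliver them to the receptor, and proteases release the ligands again by cutting the binding proteins. In the lung, IGF signalling is known for its part in growth of the airspaces and in repair by epithelial cells, endothelial cells and fibroblasts.

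The libraries held 18767295 to 20888042 counts. Levels are CPM, counts scaled to library size by the TMM method of edgeR, and a count of 0 allows up to 3 counts, which is 0.153 to 0.162 CPM and covers counting error only. Every member lay far above that limit. Markers of alveolar type 1 and type 2 cells were present in every library (summed levels of 5085 to 7015 CPM and of 18480 to 37540 CPM), under the label lung. Replicate 2 of COPD mice on the control diet stood apart: its median correlation with the other 7 libraries over log2 CPM was 0.966, against 0.983 to 0.989 for each of the others. It held the highest level of all 8 libraries for 5 of the 9 members, and the other replicate of its group held the lowest for 5. For the members, a fold change printed below is also given without either library of this group where its sign turned.

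The IGF axis differed between COPD mice and control mice mainly in 1 member, Igfbp3, which encodes the main carrier of IGFs in blood. Igfbp3 was lower in all 4 COPD libraries than in all 4 control libraries. Igf2 was also lower in all 4, by a smaller amount, and the levels of the other 7 members overlapped. The transcript of Igfbp3 (ENSMUSG00000020427) is encoded on the minus strand at chr11:7206086-7213923 of GRCm38. Its neighbour Igfbp1 lies 3539 bases away and had 1 count in the 8 libraries together. The 250 bases before the annotated start of Igfbp3, at chr11:7213924-7214173 on the minus strand, are shown because this was the member with the widest difference between the models. The sequence is from RefSeq (GRCm38.p6), and the capitals mark TATATA.

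Igfbp3: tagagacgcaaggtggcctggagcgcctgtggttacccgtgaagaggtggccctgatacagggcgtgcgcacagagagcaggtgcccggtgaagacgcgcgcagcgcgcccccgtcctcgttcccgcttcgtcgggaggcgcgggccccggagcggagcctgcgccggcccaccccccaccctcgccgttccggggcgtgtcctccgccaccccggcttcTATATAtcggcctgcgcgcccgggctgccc

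This window was 73.2% G or C, against a median of 52.4% over all 32817 promoter windows of the same length, and it held 32 CpG pairs. TATATA, which was added to the search after the sequence had been read, lay 30 to 25 bases before the start and occurs in 5.25% of all windows. The other motifs searched, on both strands, were the E-box CACGTG (6.02% of all windows), the D-box TTATGNAA (3.07%), the GC box GGGCGG (32.7%) and the TATA box TATAAA (12.4%). None of these letters was in the Igfbp3 window. Among the 13 windows of the 9 members, the GC box was in 5, the TATA box in 2 (Igfbp4 and Igfbp6), the E-box in 1 (Igfbp2) and the D-box in 0. A match is a run of letters and was not tested as a binding site.

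In control mice, Igfbp3 had 145.0 and 174.5 CPM on the control diet and 188.4 and 177.6 CPM on the TJ-41 diet. In COPD mice it had 79.6 and 67.7 CPM on the control diet and 37.4 and 51.7 CPM on the TJ-41 diet. The lowest control library was thus above the highest COPD library, and the lowest values of all were those of COPD mice on the TJ-41 diet. The mean of COPD mice was 2.17-fold lower on the control diet and 4.11-fold lower on the TJ-41 diet. As log2 fold changes of COPD mice against control mice, these were -1.12 ± 0.20 (SE, n = 2 libraries per group) and -2.04 ± 0.21, and -1.58 ± 0.14 over both diets (n = 4 per group). In whole lung, fewer cells of a type that makes a transcript and less of the transcript per cell cannot be told apart.

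**Figure D1:**
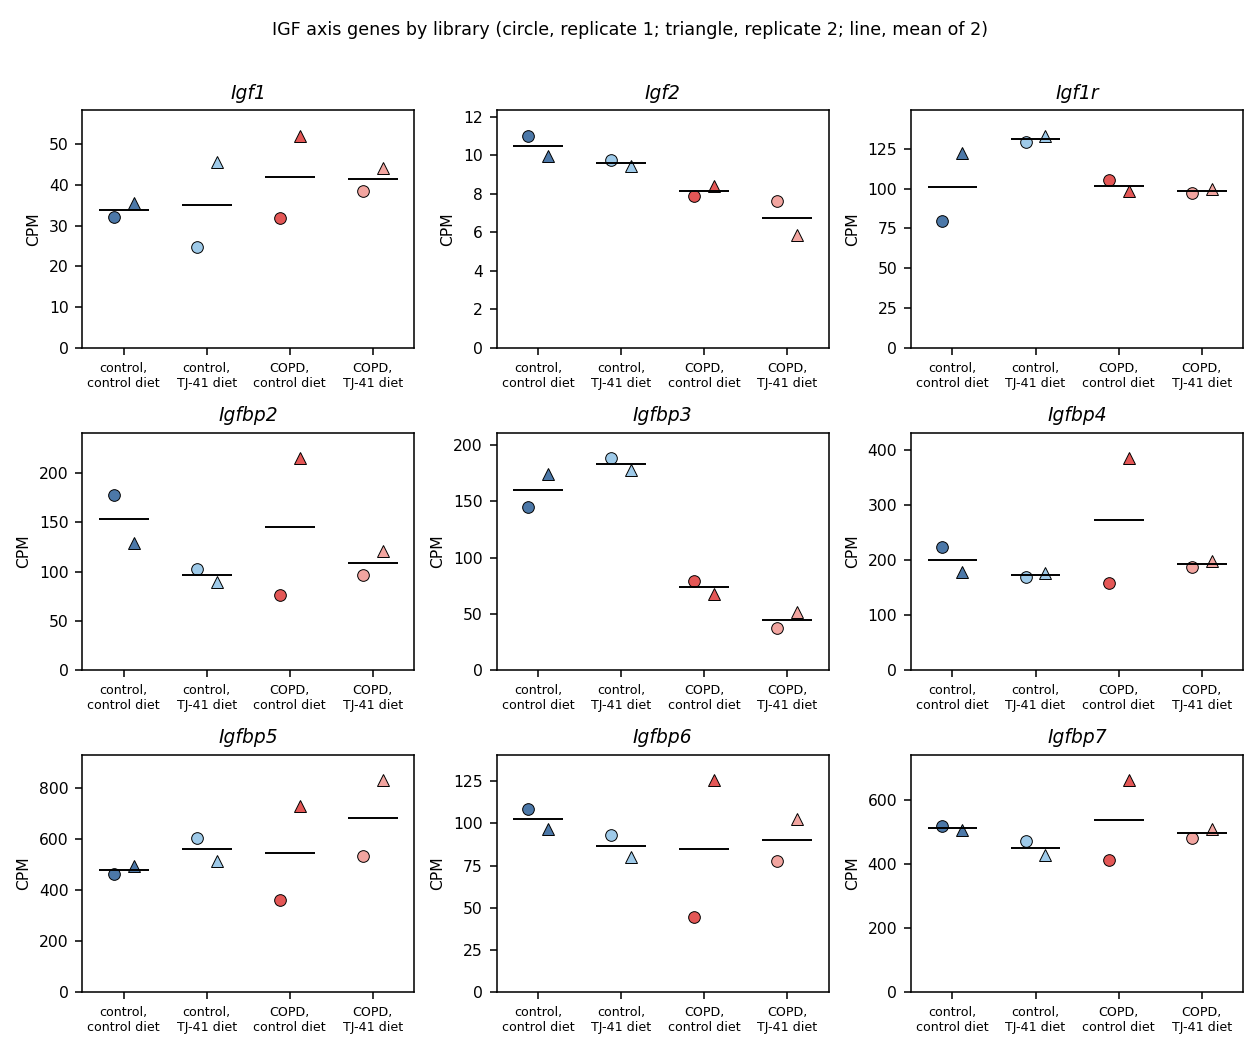
Level of each of the 9 IGF axis genes in CPM (vertical axes, from 0) in the 4 groups (horizontal axes), with circles for replicate 1, triangles for replicate 2 and a line at the mean of the 2 libraries. For Igfbp3, the 4 control libraries lie between 145.0 and 188.4 CPM and the 4 COPD libraries between 37.4 and 79.6 CPM; for Igfbp2, Igfbp4, Igfbp5, Igfbp6 and Igfbp7, the 2 COPD libraries on the control diet lie far apart.

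A gene was called where edgeR's quasi-likelihood test gave an adjusted p under 0.05 (Benjamini-Hochberg, over all 20546 genes) together with a difference beyond 1 on the log2 scale. On the control diet, 0 of the 9 members were called for COPD against control mice, where 0.122% of all genes were called. On the TJ-41 diet, 1 of 9 was called, Igfbp3, where 0.0779% of all genes were called, and over both diets it was again Igfbp3 alone, with a background of 0.443%. These comparisons share libraries with the choice of the members, and nothing is read from the counts. The fold change of Igfbp3 over both diets lay between -1.70 and -1.47 in every alternative analysis. The call on the TJ-41 diet did not hold without either TJ-41 library of the control mice or without replicate 1 of COPD mice on the TJ-41 diet, with fold changes of -1.99, -2.08 and -1.82. On the control diet, Igfbp3 was called (-1.24) without replicate 1 of COPD mice, and without replicate 2 it was not, while DESeq2 called it with both libraries.

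As a share of the counts of all 6 binding protein genes, Igfbp3 took 10.9% ± 1.42 (SD, n = 4 libraries) in control mice, with a range of 8.86% to 12.1%. In COPD mice it took 3.91% ± 2.09 (n = 4), with a range of 2.64% to 7.03%. The highest share there, 7.03%, was that of replicate 1 on the control diet, the library in which the other 5 binding protein genes were lowest. The share of Igfbp5 was 32.9% ± 3.90 in control mice and 37.1% ± 6.27 in COPD mice, and that of Igfbp7 was 30.5% ± 1.64 and 32.3% ± 3.80. These 2 genes together supplied most of the binding protein counts in every library.

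**Figure D2:**
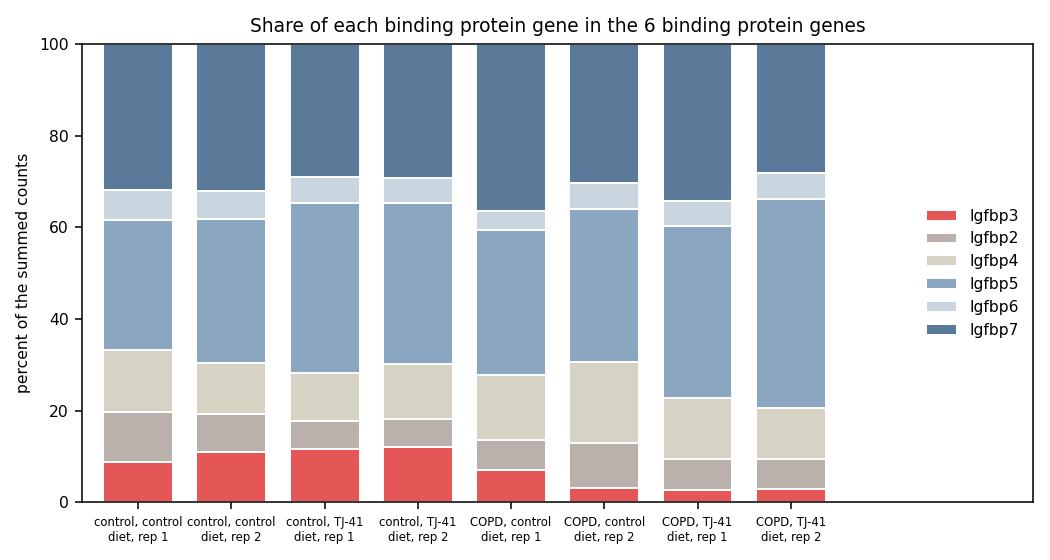
Share of each binding protein gene (percent of the summed counts of the 6 genes, vertical axis) in each of the 8 libraries (bars). The Igfbp3 segment at the foot of the bars is 8.86% to 12.1% in the control libraries and 2.64% to 7.03% in the COPD libraries.

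Levels between genes were compared per kilobase of exon, since long genes collect more reads. In control mice, Igfbp7 stood highest with 399 ± 34.1 CPM per kilobase (SD, n = 4), and its lowest library was above the highest of any other member. Igfbp5 (86.4), Igfbp6 (85.1), Igfbp2 (67.6), Igfbp3 (54.8) and Igfbp4 (42.3 CPM per kilobase) followed, and each overlapped its neighbour in this order. The receptor gene Igf1r (6.91), Igf1 (3.48) and Igf2 (1.76 CPM per kilobase) came last, and none of these 3 overlapped its neighbour. In COPD mice the order was the same except that Igfbp3, at 18.9 ± 5.89 CPM per kilobase, stood below Igfbp4 at 52.6 ± 23.4, and their libraries did not overlap.

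**Figure D3:**
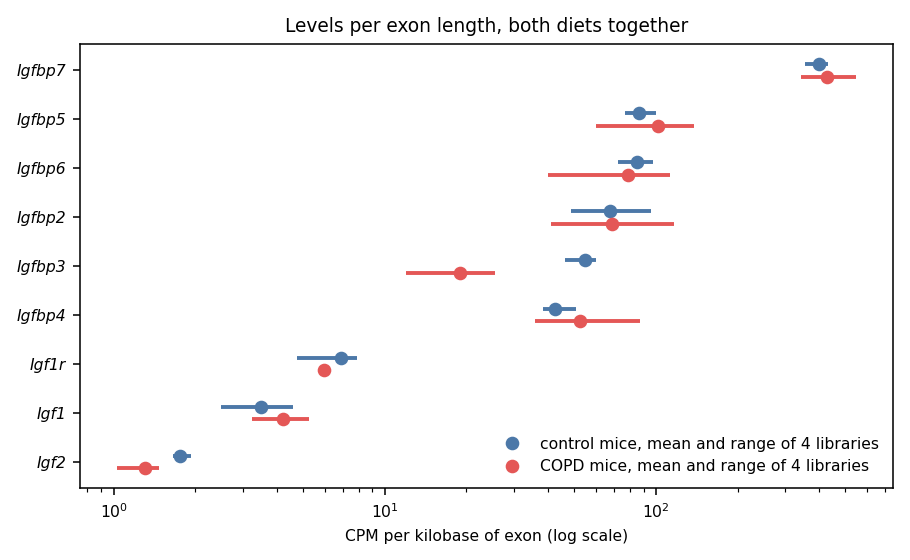
Level per exon length (CPM per kilobase, horizontal log axis) of the 9 genes in control mice and in COPD mice, both diets together, with points for the mean and lines for the range of 4 libraries. Igfbp3 moves from 54.8 to 18.9 CPM per kilobase, and the ranges of the other binding protein genes overlap between the models.

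Igf2 encodes the ligand that dominates before birth. It had 11.02 and 9.96 CPM in control mice on the control diet and 9.77 and 9.45 CPM on the TJ-41 diet, against 7.92 and 8.40 CPM and 7.66 and 5.87 CPM in COPD mice. All 4 COPD libraries were below all 4 control libraries, with a log2 fold change of -0.43 ± 0.16 over both diets. Igf2 lies at chr7:142650766-142666816 on the minus strand, and 62.8% of its exon bases are shared with Gm49394, a gene annotated on the same strand and not analysed here, so the counts of Igf2 depend on how shared reads were treated. Members whose 2 models did not overlap over both diets numbered 2 lower and 0 higher, where 3.43% of all genes were lower and 3.35% higher without overlap. Within the control diet there were 2 lower (Igfbp3 and Igf2) and 0 higher, beside 14.1% and 13.6% of all genes. Within the TJ-41 diet there were 3 lower (with Igf1r) and 2 higher (Igfbp4 and Igfbp7), beside 27.9% and 28.5%.

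Igf1, the main postnatal ligand gene (chr10:87858265-87937042, plus strand), had 32.2 and 35.6 CPM in control mice on the control diet and 24.7 and 45.5 CPM on the TJ-41 diet. In COPD mice it had 31.9 and 52.0 CPM, and 38.6 and 44.2 CPM on the TJ-41 diet. The groups overlapped, and the log2 fold change over both diets was 0.27 ± 0.22. The receptor gene Igf1r (chr7:67952827-68233668, plus strand) had 79.7, 122.2, 129.1 and 133.1 CPM in control mice, in the order of the groups above, and 105.5, 98.3, 97.4 and 99.5 CPM in COPD mice. The COPD libraries lay within the range of the control libraries, and on the TJ-41 diet alone both lay below both controls (-0.41 ± 0.20).

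The other 5 binding protein genes did not separate the models over both diets. Igfbp2 and Igfbp5 lie tail to tail, 5457 bases apart, on chromosome 1, at chr1:72824503-72852474 on the plus strand and chr1:72857932-72874884 on the minus strand. Igfbp2 encodes a binding protein that also contacts integrins, and its log2 fold change over both diets was 0.05 ± 0.28. Igfbp5, whose protein attaches to the extracellular matrix, had 0.23 ± 0.23. Igfbp4, whose protein is known as an inhibitor of IGF action that is removed by the protease PAPP-A, had 0.30 ± 0.24 (chr11:99041244-99054392, plus strand). Igfbp6 prefers IGF2 and had -0.11 ± 0.27 (chr15:102144362-102149511, plus strand). Igfbp7 binds IGFs weakly and is known from blood vessels, and had 0.10 ± 0.16 (chr5:77349240-77408041, minus strand, with 7.03% of its exon bases opposite Polr2b, whose reads cannot be told apart where strand was not used). Without replicate 2 of COPD mice on the control diet, these values over both diets turned to -0.08 for Igfbp4, -0.06 for Igfbp5 and -0.08 for Igfbp7. Without replicate 1 of that group, Igfbp6 turned to 0.17. Igfbp2 ran from -0.41 to 0.33 over 14 alternatives, and 5 of them, among them the one without replicate 2, had the opposite sign. The median log2 fold change of the 9 members was 0.05 over both diets, beside 0.00 over all genes tested.

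For these 5 genes the gap between the 2 COPD libraries on the control diet was wider than any difference between groups. Igfbp2 had 75.9 CPM in replicate 1 and 215.4 CPM in replicate 2. Igfbp6 had 44.6 and 125.5 CPM, and Igfbp4 had 158.6 and 385.0 CPM. As log2 differences of replicate 2 minus replicate 1 these were 1.49, 1.47 and 1.27, followed by Igfbp5 (1.01), Igf1 (0.69), Igfbp7 (0.68), Igf2 (0.08), Igf1r (-0.10) and Igfbp3 (-0.23). Over all genes this difference varied with exon length, with medians of 0.14, 0.18, 0.05 and -0.22 from the shortest to the longest of 4 equal groups of genes, and its part in the members' values was not tested. Leaving out replicate 2 of COPD mice on the control diet turned several log2 fold changes on that diet. They went from 0.44 to -0.34 for Igfbp4, from 0.18 to -0.41 for Igfbp5, from 0.07 to -0.31 for Igfbp7 and from 0.31 to -0.08 for Igf1. Igfbp6 moved from -0.27 to -1.20. Without replicate 1, Igfbp6 turned from -0.27 to 0.29 and Igfbp2 from -0.07 to 0.48, while without replicate 2 Igfbp2 fell to -1.01.

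Several of the members with the widest gap also varied together over the 8 libraries. Pearson's r of log2 CPM was 0.93 for Igfbp2 with Igfbp7, 0.92 for Igfbp4 with Igfbp7 and 0.87 for Igfbp2 with Igfbp4, and without replicate 2 of COPD mice on the control diet these were 0.88, 0.77 and 0.86. Igfbp3 went with none of the other binding protein genes, with r between -0.31 and 0.11, and with Igf2 its r was 0.81. These values describe 8 libraries whose members share library preparation and depth.

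The second question was whether the TJ-41 diet was accompanied by a change of these genes. In control mice, 0 of 9 members were called, as were 0% of all genes tested (edgeR's quasi-likelihood test, with 336 genes at an unadjusted p under 0.05 and 10 called by DESeq2). Igfbp2 had 177.5 and 129.2 CPM on the control diet and 102.8 and 89.9 CPM on the TJ-41 diet, a log2 fold change of -0.67 ± 0.40 (n = 2 per group). This was the largest change in size among the members in control mice, followed by Igf1r with 0.38 ± 0.20. The SE of Igfbp2 also takes in the COPD libraries, of which those on the control diet lay far apart (75.9 and 215.4 CPM). Over the alternative analyses Igfbp2 ran from -0.89 to -0.43, Igf1r from 0.10 to 0.71 and Igf1 from -0.45 to 0.42. The second place thus depended on single libraries. Without overlap of the groups, 5 members were lower and 3 higher on the TJ-41 diet, beside 19.1% of all genes lower and 19.1% higher. With 2 libraries per group, an exact two-sided permutation test cannot give a p below 0.333.

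In COPD mice, 0 of 9 members were called between the diets, where 0.00487% of all genes were called. Igfbp3 had a log2 difference of -0.72 ± 0.20, the largest in size with all libraries in the fit, and both TJ-41 libraries (37.4 and 51.7 CPM) were below both control diet libraries (79.6 and 67.7 CPM). Igf2 was the other member lower without overlap (-0.27 ± 0.23), and 0 were higher, beside 14.8% and 14.1% of all genes. Igfbp2 (-0.42 ± 0.40), Igfbp4 (-0.50 ± 0.34), Igfbp5 (0.32 ± 0.32) and the remaining 4 members overlapped between the diets. Signs of Igfbp5 and Igfbp6 turned without replicate 2 of the TJ-41 diet group, and that of Igf1 without replicate 1 of that group. The sign of Igf1 also turned with library size alone as the scaling and with a term for the replicate number. Each of these overlapping members turned as well without 1 library of the control diet group. Without its replicate 2, Igfbp2 turned to 0.52, Igfbp4 to 0.28, Igfbp7 from -0.12 to 0.26 and Igf1 from -0.02 to 0.37, and Igfbp6 moved from 0.08 to 1.015. Without its replicate 1, Igfbp5 turned to -0.09, Igfbp6 to -0.47 and Igf1r from -0.05 to 0.00, while Igfbp2 (-0.98) and Igfbp4 (-0.996) were then larger in size than Igfbp3 (-0.60). Igfbp3 and Igf2 stayed below 0 without either library. Over all alternative analyses of this comparison, Igfbp3 ran from -0.97 to -0.51 and Igf2 from -0.47 to -0.09. The difference between the COPD effect on the TJ-41 diet and on the control diet was -0.92 ± 0.28 for Igfbp3, and between -0.43 and 0.33 for the others. Without replicate 2 of the COPD mice on the control diet it was -1.02 for Igfbp3, but 1.27 for Igfbp6 and 1.2 for Igfbp2, and without replicate 1 it was -0.79 for Igfbp3 and -0.77 for Igfbp4, so the distance of Igfbp3 from the other members depended on this group. In that comparison 0 members and 0% of all genes were called (edgeR's quasi-likelihood test), with 672 genes at an unadjusted p under 0.05, 17 genes called by DESeq2 and a smallest adjusted p of 0.643.

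**Figure D4:**
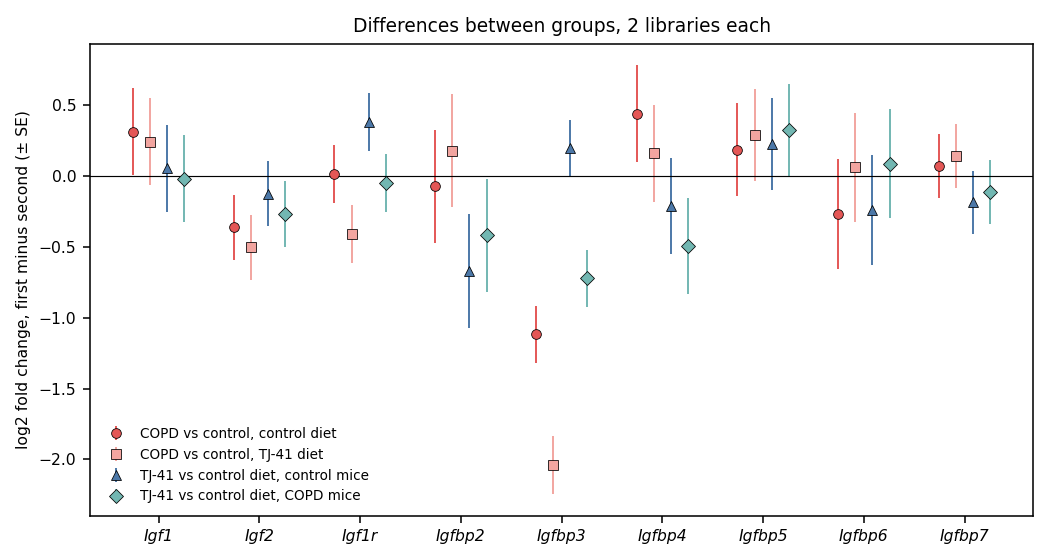
Log2 fold change of each member (vertical axis, first group minus second, with bars for 1 SE) in the 4 comparisons of 2 against 2 libraries. Igfbp3 stands at -1.12 and -2.04 for COPD mice on the control and the TJ-41 diet, and at 0.20 and -0.72 for the TJ-41 diet in control mice and in COPD mice.

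Around the 9 members, 67 further genes of the axis were listed in 7 groups, and 64 had enough counts to be tested. None was called in any of the 6 comparisons by edgeR's quasi-likelihood test, with p-values adjusted over all genes. At an unadjusted p under 0.05, 2 were higher and 5 lower in COPD mice over both diets, of 2134 such genes among all tested. DESeq2 called 2 of the list genes there, Pappa2 and Stc2, and 0 in each of the other comparisons.

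Among carriers of the binding proteins and their proteases, 8 of 10 genes were tested, and the median log2 fold change over both diets was 0.09. Stc2 encodes stanniocalcin 2, an inhibitor of the PAPP-A proteases. It had 2.46, 3.68, 3.22 and 2.43 CPM in control mice and 5.21, 6.25, 7.40 and 5.21 CPM in COPD mice. All 4 COPD libraries were above all 4 control libraries, a difference of 1.03 ± 0.23 on the log2 scale (adjusted p = 0.121). Pappa2, a protease that cuts IGFBP3 and IGFBP5, had 2.93, 7.78, 3.22 and 4.16 CPM in control mice and 1.67, 2.00, 1.15 and 1.84 CPM in COPD mice. Again the models did not overlap (-1.42 ± 0.34, adjusted p = 0.141). Pappa (0.37 ± 0.25, adjusted p = 0.627) and Igfals, the carrier of the blood complex with IGFBP3 (0.30 ± 0.30, adjusted p = 0.718), overlapped between the models and were low, at 1.62 to 4.38 CPM and 0.486 to 1.18 CPM. Stc2 and Pappa2, like Esm1, Grb14 and Igf2bp2 below, were picked after their values were seen.

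Among the other receptors and adaptors, 9 of 10 genes were tested, with a median of -0.01. Igf2r, which clears IGF2 from the cell surface, had -0.12 ± 0.14 (adjusted p = 0.752), and the insulin receptor gene Insr had -0.01 ± 0.15 (adjusted p = 0.988). Of the insulin receptor substrates, Irs1 had -0.40 ± 0.25 (adjusted p = 0.607) and Irs2 had 0.51 ± 0.20 (adjusted p = 0.430). Grb14, an adaptor that restrains the insulin receptor, ran from 64.6 to 70.6 CPM in control mice and from 47.0 to 55.3 CPM in COPD mice, without overlap, and also missed the threshold (-0.38 ± 0.11, adjusted p = 0.218).

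The growth hormone group held 8 tested genes, with a median of 0.03. Ghr, the growth hormone receptor through which Igf1 is induced in liver, ran from 126.2 to 172.4 CPM in control mice and from 107.0 to 121.2 CPM in COPD mice (-0.40 ± 0.12, adjusted p = 0.240). Socs2, a brake on that receptor, had 0.13 ± 0.12 (adjusted p = 0.704). The signalling groups stayed close to 0: the 18 genes of the PI3K, AKT and FOXO group had a median of 0.00, and the 10 of the RAS and MAP kinase group had -0.08, with none at an unadjusted p under 0.05 in either group. At the Igf2 locus, H19, the imprinted non-coding RNA beside Igf2, had 0.60 ± 0.47 (adjusted p = 0.668). Igf2bp2, which encodes a protein that binds Igf2 mRNA, had -0.40 ± 0.13 (adjusted p = 0.326), and its COPD libraries lay below its control libraries. Of the 7 CCN and other IGFBP-related genes, Esm1, a proteoglycan of endothelial cells, had 22.4 to 33.0 CPM in control mice and 13.6 to 19.2 CPM in COPD mice (-0.73 ± 0.16, adjusted p = 0.121). Over all 7 groups, 1 of the 64 tested genes was higher and 5 were lower without overlap between the models, beside 3.35% and 3.43% of all genes.

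**Figure D5:**
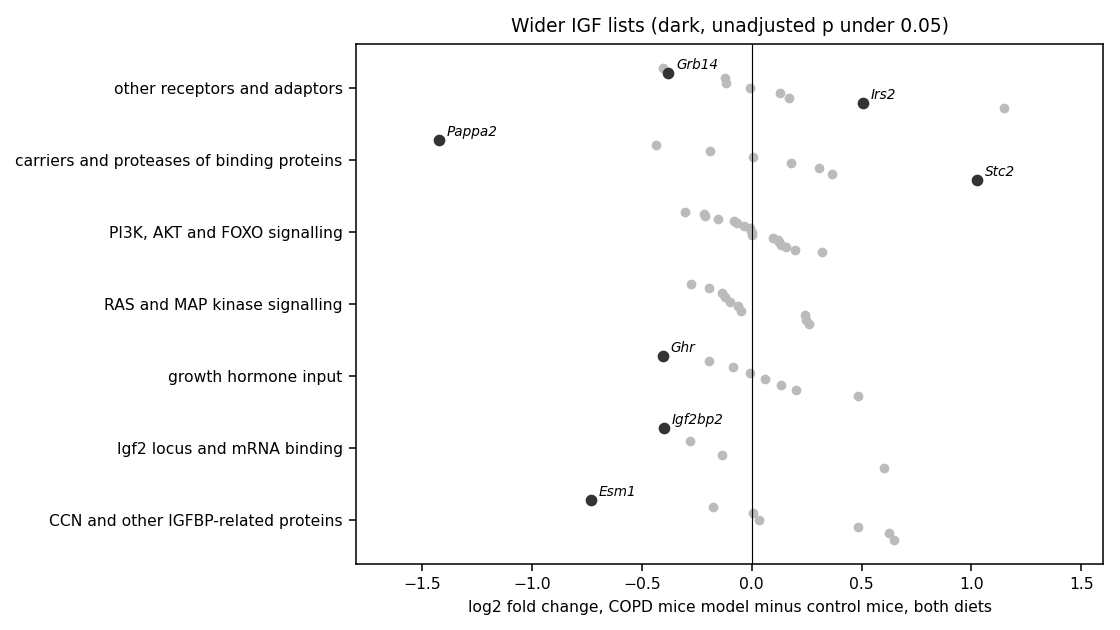
Log2 fold change over both diets (horizontal axis, COPD mice model minus control mice, 4 libraries each) of the 64 tested genes in the 7 wider IGF lists (rows). Dark named points have an unadjusted p under 0.05; none passed the adjusted threshold, and Stc2 (1.03) and Pappa2 (-1.42) stand farthest from 0 among them.

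By Pearson's r of log2 CPM over the 8 libraries, among 14039 genes averaging 5 CPM or more, the genes most like Igfbp3 were Mtmr7 (0.99), Calr-ps (0.97) and Dpysl5 (0.97). Calr-ps is a pseudogene, and its counts may include reads of its parent gene. Those most like Igf2 were Igf2bp2 (0.98), Tnfrsf13c (0.94) and A230057D06Rik (0.94), and those most like Igf1r were Pik3r3 (0.96), Crocc2 (0.96) and Rnf150 (0.96). Igf1 went with Atxn1 (0.96), Slc19a2 (0.95) and Piwil4 (0.91). The nearest genes were Gm17764, Slc25a20 and Gorasp2 for Igfbp2, Eif1b, Me1 and H2afy for Igfbp4, and Fuz, Gm7701 and Ephb6 for Igfbp5. For Igfbp6 they were Timm22, Man1b1 and Itpk1, and for Igfbp7 Dap, Itpa and Tmem120a. With a minimum of 1 CPM instead, 21 of these 27 were again among the nearest 3.

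Among the other lists, those of the clock, of macrophages and of B and plasma cells did not overlap between the models in summed level. The summed level of 15 circadian clock genes was 693 to 935 CPM in control mice and 1827 to 1888 CPM in COPD mice. Of these, 7 rose and 3 fell, among them Dbp (3.89 ± 0.14, adjusted p = 9.1e-06) and Arntl (-2.93 ± 0.26, adjusted p = 0.00246, both from edgeR's quasi-likelihood test). The 12 macrophage markers summed to 838 to 1054 CPM in control mice and 1215 to 1905 CPM in COPD mice. Of these, 0 were called and 8 of 12 log2 fold changes were above 0. Chil3 alone ran from 371 to 475 CPM in control mice and from 624 to 1385 CPM in COPD mice. The sums of the other macrophage markers overlapped between the models, and Siglecf was lower (-1.19 ± 0.31). The 8 B and plasma cell genes summed to 699 to 1146 CPM and 2130 to 3899 CPM, with 3 called higher and 5 of 8 log2 fold changes above 0. The 10 endothelial markers overlapped between the models, at 4755 to 5654 CPM in control mice and 4125 to 4782 CPM in COPD mice. Of these, 0 were called and 2 of 10 log2 fold changes were above 0. The alveolar type 1 and type 2 lists also overlapped and held 0 called genes, with 7 of 8 log2 fold changes of type 2 markers above 0. The lists of fibroblast, smooth muscle, mesothelium, heart muscle, hepatocyte, cartilage and adipocyte genes overlapped between the models and held 0 called genes, with Col9a1 at 0 in every library. The part of any of these in the levels of Igfbp3 and Igf2 was not tested.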

How the data were processed

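Lung RNA of 8 libraries was grouped by the treatment, diet and replicate number in the sample titles, and the other label field, which spells the diet TJ4, was read as TJ-41. The values deposited by the authors are raw read counts for each Ensembl gene. The submitters' processing notes name HISAT2, edgeR and mm10, and the methods name CLC Genomics Workbench. The counting program, annotation release, strand setting and treatment of reads shared by genes are not given in the sources used here. Of 52636 identifiers, 52489 were found in GENCODE M21, and 0 columns of sample values were left out.

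The fit was made in R 4.3.3 with edgeR 4.0.16, using filterByExpr (minimum count 10, minimum total 15), TMM and the quasi-likelihood test on 4 group means with 4 residual degrees of freedom. Calls needed an adjusted p under 0.05 (Benjamini-Hochberg) and a difference beyond 1 on the log2 scale, the thresholds the study states. The SE is the fold change divided by the root of F, whose spread was estimated per gene from the libraries of all 4 groups. Per-length levels used the union of exons in M21. The fit was tested on simulated data. Correlations used log2 of CPM plus 1.

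The members, the 7 wider lists, the clock list and the lists of cell type markers were chosen with earlier results of these data known. Genes named were the members, called list genes, Igf2r, Insr, Irs1, Irs2, Igfbp1, Igfals, Pappa, Ghr, Socs2, H19, Dbp, Arntl and the 3 genes most like each member. Stc2, Pappa2, Grb14, Igf2bp2, Esm1, Ccn2, Ccn5, Chil3, Siglecf and Col9a1 were named outside this rule, after their values were seen. Alternatives were library size alone, DESeq2 1.42.0, other filters, relative log expression factors, only the groups compared, no fold threshold, a replicate block and each library left out in turn.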

Additional observations from a re-analysis of the deposited data

Results flagged for a closer look

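The TJ-41 diet went with opposite differences of Igfbp3 in the 2 models, and this was singled out because the libraries of the 2 diets did not overlap in either model. In control mice both TJ-41 libraries were above both control diet libraries, with a log2 fold change of 0.20 ± 0.20 (SE, n = 2 per group), which became 0.07 without replicate 1 and 0.33 without replicate 2 of the control mice on the control diet. Of all genes, 19.1% were higher without overlap in this comparison. In COPD mice both TJ-41 libraries were below both control diet libraries, with -0.72 ± 0.20, beside 14.8% of all genes lower without overlap. The difference between the diet effects was -0.92 ± 0.28 and was not called by edgeR's quasi-likelihood test over all genes. No p is given for it, since the gene was chosen on these values.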

How the results depend on the processing

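No log2 fold change called for a member changed sign under any alternative, and of the recomputed values of the members 746 moved by less than the replicate spread and 46 by more. Changing the scaling turned the sign only of Igf1r (COPD mice model, control diet) and of Igf1 (diet in COPD mice, and the difference between diets), all near 0. For the comparisons in the order COPD mice model on the control diet, on the TJ-41 diet and over both diets, diet in control mice, diet in COPD mice, and the difference, all genes called numbered 25, 16, 91, 0, 1 and 0. DESeq2 called 174, 125, 249, 10, 14 and 17. With all genes with at least 1 count, 147, 89, 278, 0, 2 and 6 were called. With only the groups compared, 248 were called for the TJ-41 diet, 5 for the diet in control mice and 0 for the diet in COPD mice. The labels do not say whether the replicate numbers pair the libraries, and the main fit used no such pairing. The correlations of replicate differences between groups ran from -0.256 to 0.158, which cannot decide this. With the replicate block, 21, 18, 74, 0, 0 and 0 genes were called. Leaving out each library in turn gave 3 to 1343, 2 to 168, 15 to 873, 0 to 0, 0 to 728 and 0 to 14 called genes, the highest of each without a control diet library of COPD mice where it was above 0. For the wider lists (0 called in each comparison) leaving out a library gave up to 2, 0, 2, 0, 2 and 1. Stc2 was called for the TJ-41 diet with only the groups compared (1 gene), and Stc2 and Pappa2 over both diets with DESeq2 and with all genes with at least 1 count (2 genes). For the members, the control diet count of 0 became 1 with DESeq2 and with all genes with at least 1 count (Igfbp3 in both), and 0 to 1 without a library, while the TJ-41 diet count of 1 became 0 to 1 without a library. The cause of these shifts was not tested.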

Other observations

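Of the CCN genes, whose proteins hold a domain that resembles part of the IGF binding proteins, Ccn2 (connective tissue growth factor) followed the library that stood apart. It had 407.0 CPM in replicate 2 of COPD mice on the control diet and 70.8 to 145.1 CPM in the other 7 libraries, and Irs1 had 6.56 CPM there and 14.8 to 18.4 CPM in the others. Without replicate 1 of that group, Ccn2 was called higher (1.80) and Irs1 lower (-1.37) in COPD mice on the control diet, and between the diets (TJ-41 minus control) of COPD mice they were called in the opposite directions (-1.76 and 1.23), all resting on that 1 library. Ccn5 was called for the TJ-41 diet in COPD mice without replicate 2 (1.199). Ccn2, Irs1 and Ccn5 were singled out after their values were seen.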
